A study of Homo sapiens with 51 samples.

Results

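The libraries described here compare K562 cells that carried the DDX3 R534S transgene with K562 cells that carried the wild-type DDX3 transgene. They are the 8 of 51 RNA-seq libraries whose titles name DDX3 R534S or DDX3 WT: 2 cytoplasmic-labelled and 2 nuclear-labelled libraries of each genotype. K562 is an established human myelogenous leukaemia line with erythroid and megakaryocytic features. The study fractionated such cells and depleted ribosomal RNA before strand-specific sequencing. In the R534S cells and in the WT cells alike, endogenous DDX3 was knocked down by CRISPR interference, a silencing of the gene by a guide RNA, and a DDX3 protein was overexpressed from a lentivirus. The groups used for reference were 5 other DDX3 mutants made in this way (G325E, R326H, R351W, R376C and T532M), cells with the knockdown guide (sgDDX3) and no transgene, and uninfected cells. For the cells with no transgene, the deposited names read wt and name no guide. The sample labels were used. The uninfected cells were placed with the transgene groups by assumption. The labels give no promoter or coding sequence for the transgene, do not say whether a group is 1 clone or a pool, and do not say whether the 2 replicates came from separate cultures. The p-values therefore measure only the spread between replicate libraries, pooled over all the groups named here.

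DDX3X encodes a DEAD-box RNA helicase that unwinds RNA structure and helps ribosomes to start translation on mRNAs with structured leaders. DEAD-box helicases are built of a pair of RecA-like domains that close around RNA and ATP. Motif VI, an arginine-rich stretch of the second domain, takes part in ATP binding and hydrolysis. ATF4 is a transcription factor of the integrated stress response, and its mRNA is translated more when the initiation factor eIF2 is phosphorylated. ATF4 activates genes for amino acid synthesis, amino acid transport and transfer RNA charging.

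The residue at issue was located in the reference. The DDX3X codon changed in R534S, counted from the start codon of a transcript that codes for 662 residues, is an arginine codon at chrX:41346607-41346609 on the plus strand of GRCh38, in exon 15. R534S replaces this arginine by serine and T532M replaces the threonine 2 codons before it. Both lie in motif VI. The exonic reference sequence of codons 522 to 538, at chrX:41346571-41346621, is shown with this codon in capitals. It is the human gene's sequence, and whether the transgene uses the same codons was not given.
DDX3X codons 522 to 538: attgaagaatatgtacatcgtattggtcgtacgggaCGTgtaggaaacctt

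Content ran against the fraction labels. MALAT1, a long non-coding RNA that is kept in the nucleus, was at 20729 to 24915 CPM (counts scaled to library size) in the 4 cytoplasmic-labelled libraries of R534S and WT and at 2887 to 3493 CPM in the 4 nuclear-labelled ones. The share of reads in no gene feature was 62.2% to 64.4% in the former and 8.63% to 9.60% in the latter. Fractions are therefore named only as labelled. The total count in genes was 4155602 to 6943829 for a cytoplasmic-labelled library and 8191020 to 11884459 for a nuclear-labelled one. Replicates were not copies of each other, since the chi-square per degree of freedom between the 2 libraries of a group was 2.21 to 5.99, highest in the WT cytoplasmic-labelled pair. Expression was compared as normalised CPM, and log2 changes are given as R534S minus WT ± standard error from edgeR. In such bulk samples, fewer cells with an RNA and less of it per cell cannot be told apart.

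DDX3X mRNA, the target of the guide and the product of the transgene, was at like levels in R534S and WT cells. Its cytoplasmic-labelled levels were 314 and 333 CPM in R534S and 314 and 321 CPM in WT, and its nuclear-labelled levels were 367 and 384 CPM and 370 and 361 CPM. The cells with no transgene had 147 and 127 CPM and 147 and 147 CPM, and the uninfected cells had 280 and 289 CPM and 284 and 298 CPM. R534S and WT libraries thus lay side by side, above every library without a transgene. The difference between R534S and WT was 0.03 ± 0.09 in the cytoplasmic-labelled libraries, with a 95% confidence interval of -0.15 to 0.21, and 0.04 ± 0.05 in the nuclear-labelled ones, with an interval of -0.07 to 0.14. Against cells with no transgene, DDX3X was higher in R534S by 1.24 ± 0.09 and 1.35 ± 0.06. Reads of the silenced gene and of the transgene cannot be told apart in these counts. The other 5 mutants spanned 217 to 430 CPM and 290 to 554 CPM, and DDX3X in the nuclear-labelled R534S libraries was 0.22 below their mean (adjusted p = 0.0015).

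**Figure D1:**
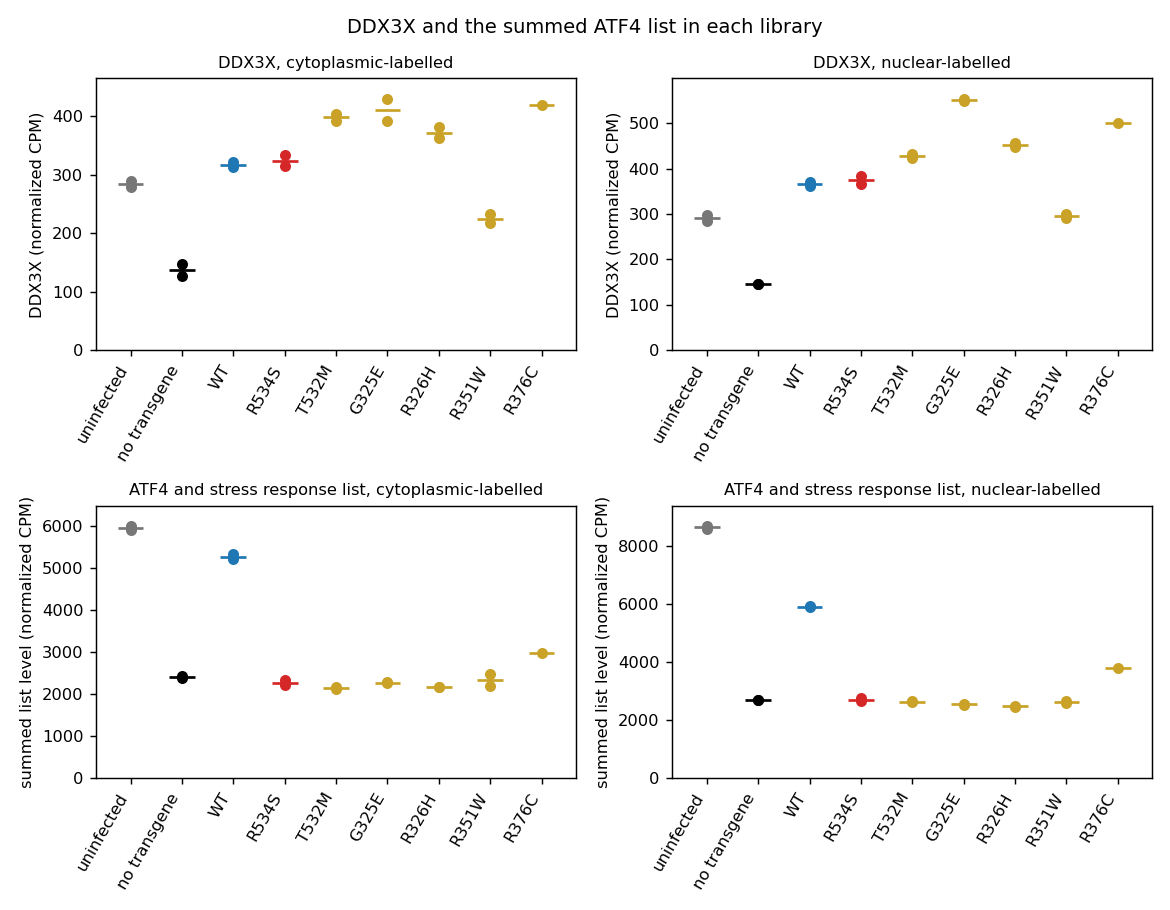
DDX3X level (top) and summed level of the 32 measured genes of the ATF4 list (bottom), in normalised CPM, in each library of the transgene experiment by genotype, for the cytoplasmic-labelled (left) and nuclear-labelled (right) libraries (points, libraries; bars, group means). DDX3X is at 314 to 384 CPM in all R534S and WT libraries, while the summed ATF4 list is at 2209 to 2735 CPM in R534S and at 5202 to 5926 CPM in WT.

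Many genes differed between R534S and WT. In the cytoplasmic-labelled libraries 546 of 17530 genes (3.11%) were higher and 749 (4.27%) lower in R534S at an adjusted p under 0.05, 7.39% in either direction. In the nuclear-labelled libraries 1489 of 14598 genes (10.2%) were higher and 1488 (10.2%) lower, 20.4% in either direction. Of 13968 genes tested in both, 628 were called in both, which is 50.3% of the cytoplasmic-labelled and 21.2% of the nuclear-labelled calls. Among these, 353 were lower in both, 232 higher in both and 43 opposite in sign. Non-overlap of 2 libraries with 2 is common here and marks little by itself, since 54.8% and 57.7% of all genes had groups that did not overlap. The counts moved with single libraries. The cytoplasmic-labelled count was 465 and 598 without R534S replicate 1 and 2, and 588 and 508 without WT replicate 1 and 2. It was 2233 and 2222 without replicate 1 and 2 of the cells with no transgene, which are in the fit but in neither group compared. The nuclear-labelled count was 1856 without R534S replicate 1 and 1806 without WT replicate 1.

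**Figure D2:**
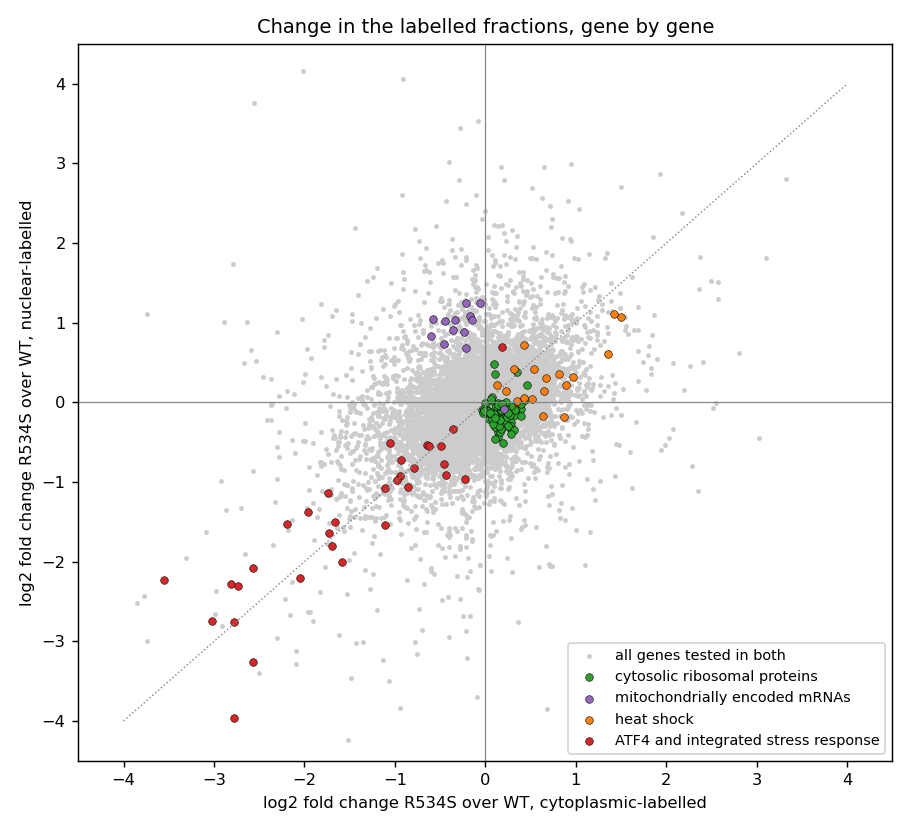
Log2 fold change, R534S over WT, of each gene tested in both labelled fractions (x axis, cytoplasmic-labelled; y axis, nuclear-labelled; 13968 genes, 4 of them outside the axes; dotted line, equal change), with members of 4 gene lists in colour. ATF4 list genes lie at the lower left, with CHAC1 at -2.78 and -3.96, and 12 of 13 mitochondrially encoded mRNAs lie above 0 on the y axis.

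The largest changes were falls in genes of the ATF4 list. Of 32 measured genes, 27 were lower in R534S than in WT and 0 higher in the cytoplasmic-labelled libraries, where 4.27% of all genes were lower. The median change was -1.35, beside -0.01 over all genes. In the nuclear-labelled libraries 31 were lower and 1 was higher, with a median of -1.26 beside 0.00 over all genes. The list's summed level was 2327 and 2209 CPM in R534S against 5324 and 5202 CPM in WT in the cytoplasmic-labelled libraries, and 2735 and 2657 CPM against 5926 and 5877 CPM in the nuclear-labelled ones. The count of lower genes stayed between 24 and 30 over all alternatives in the former, and was 30 or 31 in the latter.

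Among the regulators, ATF4 itself was lower in the nuclear-labelled libraries, at 323 CPM in R534S replicate 2 and little above this in replicate 1, against 640 and 621 CPM in WT (-0.96 ± 0.05, adjusted p = 2.2e-26). Cytoplasmic-labelled ATF4 was at 188 and 169 CPM against 213 and 205 CPM, and this difference of -0.23 ± 0.10 did not pass the test (adjusted p = 0.19). The fall thus differed between the fractions, with a ratio change of -0.79 ± 0.11. ATF3, a stress-induced transcription factor, fell to 3.46 and 5.15 CPM from 15.6 and 19.1 CPM in the cytoplasmic-labelled libraries and to 5.59 and 5.60 CPM from 24.8 and 26.9 CPM in the nuclear-labelled ones. Both R534S libraries were below both WT libraries in each fraction. CEBPG, a partner that forms dimers with ATF4, fell by 0.79 and by 0.82 on the log2 scale. DDIT3, which encodes the stress factor CHOP, fell only in the nuclear-labelled libraries by the test, with -0.45 ± 0.20 (adjusted p = 0.17) and -0.78 ± 0.14 (adjusted p = 1.1e-05) in this order. That the change differed between fractions was not shown for DDIT3, whose ratio change of -0.39 ± 0.25 had an adjusted p of 0.52. TRIB3, a pseudokinase that feeds back on ATF4, and SESN2, a leucine sensor that restrains mTORC1, fell by 1.66 and 1.73 in the cytoplasmic-labelled and by 1.5 and 1.65 in the nuclear-labelled libraries. DDIT4, another inhibitor of mTORC1, was at 36.9 and 32.7 CPM in the R534S nuclear-labelled libraries and at 336 and 331 CPM in WT, a difference of -3.26 ± 0.08. JDP2, a repressor of the same bZIP class, was not on the list and was named by its size of change, with 4.74 and 3.63 CPM against 25.2 and 27.9 CPM in the nuclear-labelled libraries.

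Amino acid synthesis genes fell together. PHGDH, the first enzyme of serine synthesis, was at 37.4 and 35.2 CPM in R534S and at 267 and 245 CPM in WT in the cytoplasmic-labelled libraries, and at 41.4 and 38.6 CPM and 193 and 196 CPM in the nuclear-labelled ones. All R534S libraries lay far below all WT libraries, by 7.01-fold and 4.87-fold. PSAT1 and PSPH, the next steps to serine, fell by 1.59 and 0.86 on the log2 scale in the cytoplasmic-labelled and by 2.00 and 1.06 in the nuclear-labelled libraries. The mitochondrial one-carbon enzymes followed: SHMT2 fell by 1.11 and 1.07, MTHFD2 by 1.11 and 1.54 and ALDH1L2 by 2.74 and 2.30. ASNS, which makes asparagine, was at 2.02 and 1.78 CPM in R534S and at 21.4 and 24.0 CPM in WT in the cytoplasmic-labelled libraries, the largest fall there (-3.56 ± 0.31). Its nuclear-labelled levels were low, 0.486 and 0.659 CPM against 2.37 and 3.09 CPM. The nuclear-labelled call of ASNS was lost without R534S replicate 1 or without WT replicate 2, at -2.04 to -2.01. CTH, which makes cysteine, fell from 98.4 and 89.3 CPM to 18.6 and 15.3 CPM in the nuclear-labelled libraries. PCK2, the mitochondrial phosphoenolpyruvate carboxykinase, fell by 1.70 and 1.80. ALDH18A1, an enzyme of proline synthesis, went the other way: it was at 39.0 and 32.9 CPM in R534S and at 21.6 and 22.6 CPM in WT in the nuclear-labelled libraries, 0.70 ± 0.13 higher, and at 84.4 and 88.7 CPM against 72.2 and 80.1 CPM in the cytoplasmic-labelled ones (adjusted p = 0.39). ASS1, which makes argininosuccinate in arginine synthesis and was not on the list, was at 3.74 and 4.75 CPM against 38.5 and 44.6 CPM and at 8.38 and 6.59 CPM against 27.7 and 29.8 CPM.

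Amino acid transporters were lower as well. SLC7A11, the cystine transporter, was at 21 and 20.2 CPM in R534S against 139 and 145 CPM in WT, and at 8.87 and 8.79 CPM against 63.1 and 57.0 CPM in the nuclear-labelled libraries. The glycine transporter SLC6A9 fell by 2.57 and 2.08. SLC7A5, a carrier of large neutral amino acids, SLC7A1, a carrier of cationic ones, and SLC1A5, a glutamine carrier, fell by 1.96, 1.74 and 1.05 in the cytoplasmic-labelled and by 1.38, 1.14 and 0.51 in the nuclear-labelled libraries. The fall of these 3 carriers was smaller in the nuclear-labelled libraries, with ratio changes of 0.53 ± 0.12, 0.55 ± 0.12 and 0.48 ± 0.11. CHAC1, which degrades glutathione, had the largest nuclear-labelled fall of any named gene, from 25.9 and 24.8 CPM to 1.70 and 1.54 CPM (-3.96 ± 0.28), and fell from 10.1 and 9.22 CPM to 2.02 and 0.594 CPM in the cytoplasmic-labelled libraries.

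Genes for secreted proteins were among the largest falls. STC2, a secreted glycoprotein of the list, was at 12.5 and 14.1 CPM against 114 and 101 CPM in the cytoplasmic-labelled libraries, an 8.10-fold difference. Outside the list, ADM2, a peptide hormone, was at 6.91 and 7.52 CPM against 53 and 61.3 CPM, and INHBE, an inhibin subunit, at 6.91 and 7.33 CPM against 56.8 and 50.6 CPM. TF, which encodes transferrin, was at 3.74 and 3.76 CPM against 30.8 and 28.7 CPM. No R534S library reached a WT library for any of these 4 genes, and all 4 also fell in the nuclear-labelled libraries, by 2.37 to 2.81. VEGFA, the angiogenic growth factor, fell by 1.62 and 1.42.

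**Figure D3:**
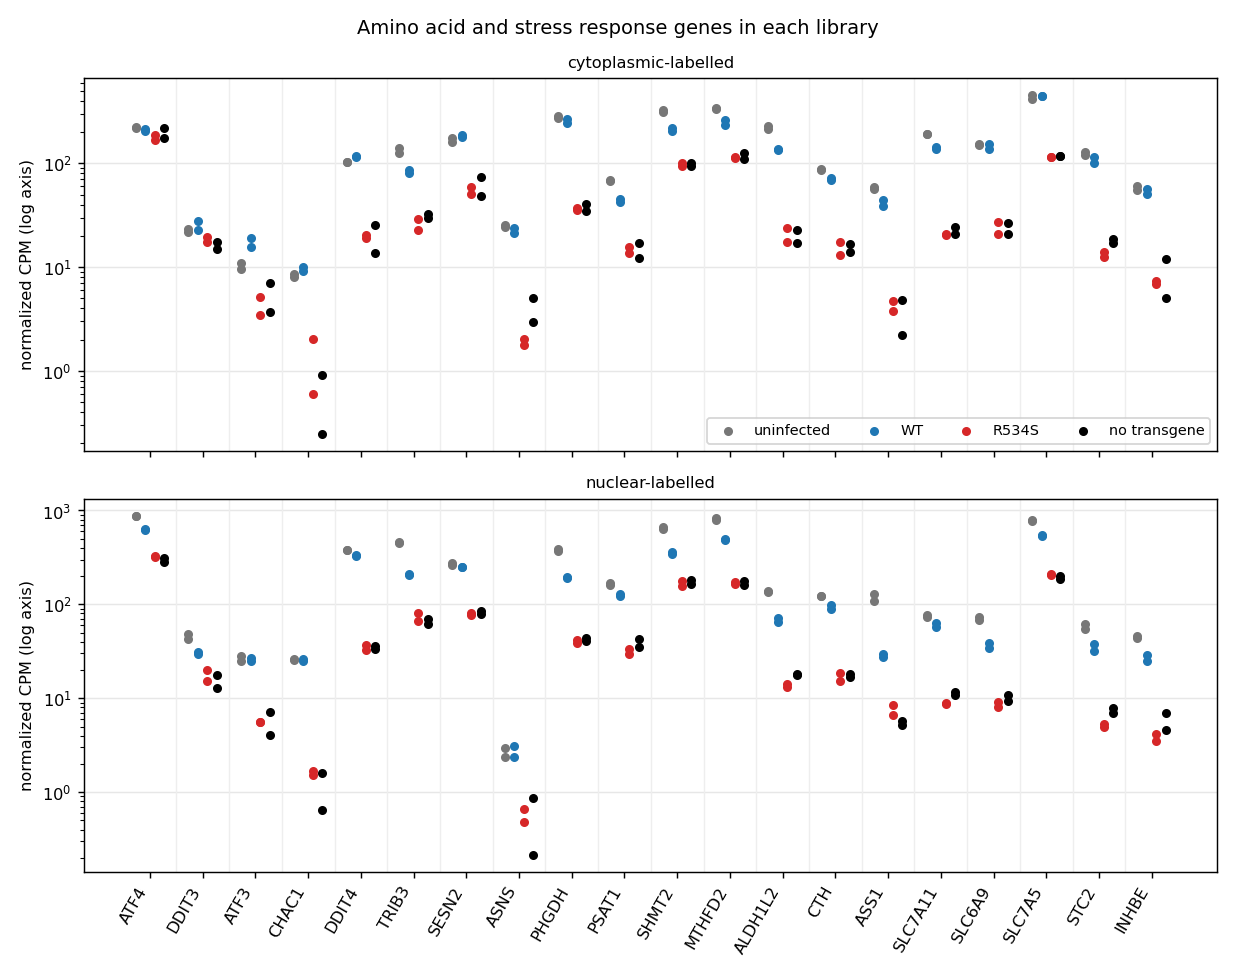
Normalised CPM on a log axis of 20 genes of amino acid metabolism and stress response in the uninfected, WT, R534S and no-transgene libraries (points, libraries; top, cytoplasmic-labelled; bottom, nuclear-labelled). R534S points lie beside those with no transgene and below WT, for PHGDH at 37.4 and 35.2 CPM against 267 and 245 CPM in the cytoplasmic-labelled libraries, while ATF4 itself is close to WT there.

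The promoters of the list were searched for the composite element bound by ATF4 with C/EBP proteins, spelled TGATGNAA, in the 250 bases before each RefSeq start on GRCh38.p14, on both strands. It was found in 6 of 27 list genes with a promoter sequence (22.2%) and in 1061 of 27305 genes of all kinds (3.89%). A match is a run of letters, not a shown binding site. These shares come from the reference sequence and the choice of list alone and are no result about R534S. The windows of 4 genes that fell are shown, with the matched letters in capitals, each read 5′ to 3′ along the gene. They are ASNS at chr7:97872458-97872487 on the minus strand, CEBPG at chr19:33374060-33374089 on the plus strand, CHAC1 at chr15:40953251-40953280 on the plus strand, where the match lies on the other strand, and ATF3 at chr1:212565205-212565234 on the plus strand.
ASNS: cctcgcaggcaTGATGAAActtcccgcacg
CEBPG: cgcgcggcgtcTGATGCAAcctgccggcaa
CHAC1: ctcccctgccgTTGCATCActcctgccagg
ATF3: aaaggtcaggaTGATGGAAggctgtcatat

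Cytosolic aminoacyl-tRNA synthetases, which charge transfer RNAs with amino acids, were lower in part. Of 20 genes, 10 fell and 1 rose in the cytoplasmic-labelled libraries, where 4.27% of all genes fell, and 15 fell in the nuclear-labelled ones, where 10.2% did, with medians of -0.28 and -0.44. GARS1 was at 153 and 164 CPM against 464 and 461 CPM in the cytoplasmic-labelled libraries and at 230 and 230 CPM against 527 and 510 CPM in the nuclear-labelled ones. CARS1, WARS1 and MARS1 fell by 1.62, 1.60 and 1.09 in the former and by 1.19, 1.18 and 0.87 in the latter. VARS1 was the gene that rose, by 0.44 in the cytoplasmic-labelled libraries, and the count of rises was 0 there without R534S replicate 1 or WT replicate 1.

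The R534S libraries were then set against the cells with no transgene, a comparison that does not use WT. There, 7 genes (0.0399%) were higher and 34 (0.194%) lower in the cytoplasmic-labelled libraries, and 16 (0.11%) higher and 15 (0.103%) lower in the nuclear-labelled ones. At an unadjusted p under 0.05 the counts were 997 and 1242. Of the 32 ATF4 list genes 0 were called in either fraction by edgeR or by DESeq2, with 2 lower and 0 higher at an unadjusted p under 0.05 in the cytoplasmic-labelled and 5 lower and 1 higher in the nuclear-labelled libraries. The list medians were -0.05 and -0.01. PHGDH, for example, was at 34.6 and 40.4 CPM in the cytoplasmic-labelled libraries with no transgene, both R534S values lay between these, and the difference had an interval of -0.35 to 0.26. SESN2 differed by -0.15, with an interval of -0.47 to 0.17, and SLC7A11 by -0.13, with an interval of -0.47 to 0.21. The list's summed level with no transgene was 2419 and 2385 CPM and 2681 and 2695 CPM, and in uninfected cells 5905 and 5985 CPM and 8581 and 8664 CPM. R534S libraries lay near the former and WT libraries nearer the latter. Cells with no transgene differed from WT in 8.4% and 18% of genes, and uninfected cells in 8.27% and 21.2%. These comparisons share the WT libraries with R534S against WT, so their likeness is not a result of its own.

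The genes that did separate R534S from cells with no transgene were few. After DDX3X, the leading protein-coding ones were MUC4, a mucin, and UNC13A, a gene of synaptic vesicle release, both named after their values were seen. MUC4 was at 103 and 116 CPM in R534S, 56.9 and 37.7 CPM with no transgene and 143 and 118 CPM in WT in the cytoplasmic-labelled libraries. Both R534S libraries were above both with no transgene, by 1.22 (adjusted p = 1.1e-06), and below both WT libraries, by 0.25, which did not pass the test (adjusted p = 0.25). UNC13A was at 96.8 and 84.4 CPM in R534S, 38.8 and 45.3 CPM in WT, 37.8 and 47.3 CPM with no transgene and 30.6 and 26.1 CPM in uninfected cells. R534S was above all of these and above the 9 libraries of the other 5 mutants, which spanned 41.8 to 70.9 CPM. Its difference was 1.10 ± 0.15 from WT, 1.09 from no transgene (adjusted p = 5.5e-05) and 0.70 from the mean of the other mutants (adjusted p = 0.001). Nuclear-labelled UNC13A was at 22.7 and 25.6 CPM in R534S and at 11.7 and 13.2 CPM in WT, with differences of 0.95, 0.94 and 0.54, and here the other mutants reached 23.9 CPM, above R534S replicate 1. Most of the 34 lower genes were small nuclear and nucleolar RNAs, such as RNU5B-1, a U5 spliceosomal RNA, at 60.6 and 47.1 CPM in R534S, 224 and 259 CPM with no transgene and 193 and 126 CPM in WT. Such RNAs share reads with near-identical copies and are uncertain. The cytoplasmic-labelled count of 41 was 22 and 12 without R534S replicate 1 and 2, and 453 and 91 without replicate 1 and 2 of the cells with no transgene. The nuclear-labelled count of 31 was 8 without R534S replicate 1, 4 and 5 without replicate 1 and 2 of the cells with no transgene, and 79 and 80 without T532M replicate 1 and 2.

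Against the mean of the other 5 mutants, R534S was higher in 14 genes (0.0799%) and lower in 1 (0.0057%) in the cytoplasmic-labelled libraries, 0.0856% in either direction, and higher in 107 (0.733%) and lower in 145 (0.993%) in the nuclear-labelled ones. Of the ATF4 list 0 were called in the former (1 higher and 4 lower at an unadjusted p under 0.05, and 0 by DESeq2) and 5 were lower in the latter. These were SLC7A11 (-0.72), ALDH1L2 (-0.54), PSAT1 (-0.44), PHGDH (-0.27) and PCK2 (-0.23). SLC7A11 alone among them was below every nuclear-labelled library of the other mutants, which spanned 9.40 to 28.4 CPM. The range of the other mutants included both R534S values for the rest, at 12.6 to 59.6 CPM for ALDH1L2, 25.6 to 104 CPM for PSAT1, 26.4 to 153 CPM for PHGDH and 55.6 to 151 CPM for PCK2. T532M was lower than R534S in PHGDH, at 26.4 and 31.8 CPM, and in PCK2, at 55.6 and 56.0 CPM. The R376C library had the highest summed list level among the mutants, at 2978 and 3796 CPM, and stands alone in its group. The mean of the other 5 mutants includes it. In the nuclear-labelled libraries its list median against WT was -0.56, beside -1.42 in G325E, -1.36 in R351W, -1.29 in R326H and -1.24 in T532M. R534S, at -1.26, lay among the latter. BCAT1, which transfers amino groups from branched-chain amino acids, and MS4A3, a membrane protein of myeloid progenitors, were named after their values were seen. In the nuclear-labelled libraries they were 0.34 and 0.43 below the mean of the other mutants and 0.97 and 0.88 below WT. MS4A3 in R534S was below all nuclear-labelled libraries of the other mutants, while BCAT1 in R534S replicate 2 lay within their range. LIF, a cytokine, was called higher by 0.71, but the 2 T532M libraries were at 7.23 and 8.19 CPM and R534S, at 81.8 and 83.2 CPM, lay within the range of the other mutants, up to 94.9 CPM. ZNF608, FN1, ZNF521 and MAML2, named after their values were seen, were alike among the 14 in this: the T532M libraries were at 0.364 to 2.49 CPM, and R534S lay within the range of the other mutants. The cytoplasmic-labelled count of 15 was 0 and 5 without R534S replicate 1 and 2, and 58 without either library with no transgene. The nuclear-labelled count of 252 was 11 and 119 without R534S replicate 1 and 2, 155 without G325E replicate 2 and 749 without T532M replicate 2.

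T532M, the neighbour in motif VI, was not alike in all genes. R534S differed from T532M in 698 genes (3.98%) in the cytoplasmic-labelled libraries, 369 higher (2.1%) and 329 lower (1.88%), and in 2065 genes (14.1%) in the nuclear-labelled ones, 929 higher (6.36%) and 1136 lower (7.78%). DDX3X was 0.30 and 0.19 lower in R534S than in T532M (adjusted p = 0.049 and 0.0076). Of the ATF4 list, 1 was higher and 0 lower in the cytoplasmic-labelled libraries, and 4 were higher and 4 lower in the nuclear-labelled ones. Of the synthetases, 11 of 20 were higher in R534S in the nuclear-labelled libraries, and of 38 mitosis genes 10 were higher and 0 lower. Lineage markers differed there too: of 21 erythroid surface and regulator genes 1 was higher and 10 were lower, and of 13 megakaryocyte and platelet genes 0 were higher and 8 lower. Their summed levels were 2338 and 2361 CPM in R534S against 2601 and 2665 CPM in T532M for the former, and 430.1 and 462.5 CPM against 587.5 and 616.2 CPM for the latter. The part of these lineage differences in the comparison with T532M was not tested. Without R534S replicate 1 or 2 the cytoplasmic-labelled count was 296 and 337, without T532M replicate 1 or 2 it was 313 and 323, and without replicate 1 or 2 of the cells with no transgene it was 1213 and 1208. The nuclear-labelled count was 1235 without R534S replicate 2 and 1372 without T532M replicate 2.

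Heat shock genes, which encode protein-folding chaperones, were higher in R534S. In the cytoplasmic-labelled libraries 12 of 18 rose and 0 fell, where 3.11% of all genes were higher, with a median of 0.64. In the nuclear-labelled libraries, where 10.2% of all genes were called in each direction, 11 rose and 2 fell, with a median of 0.26. HSPA8, the constitutive HSP70, was at 831 and 875 CPM in R534S against 325.4 and 339.9 CPM in WT in the cytoplasmic-labelled libraries and at 1900 and 1820 CPM against 1190 and 1260 CPM in the nuclear-labelled ones. The inducible HSPA1A was at 46.2 and 42.0 CPM against 13.5 and 17.3 CPM, and its near-identical copy HSPA1B at 30.2 and 27.9 CPM against 13 and 9.22 CPM. The split of reads between these copies is uncertain. HSP90AB1, a constitutive HSP90, moved in opposite directions: it was at 1340 and 1410 CPM against 751 and 750 CPM in the cytoplasmic-labelled libraries and at 2330 and 2250 CPM against 2610 and 2570 CPM in the nuclear-labelled ones. HSPD1, the mitochondrial chaperonin, did the same, with 0.63 ± 0.09 and -0.18 ± 0.05. The 2 nuclear-labelled falls became 1 without R534S replicate 1 or WT replicate 2. DNAJB1, an HSP70 partner, rose by 0.72 in the nuclear-labelled libraries and was 0.43 ± 0.16 higher in the cytoplasmic-labelled ones (adjusted p = 0.11). Cells with no transgene had HSPA8 at 901 and 723 CPM and HSPA1A at 32.8 and 30.6 CPM. Against these cells 0 of 18 heat shock genes were called in either fraction by edgeR or DESeq2, with 1 higher and 1 lower at an unadjusted p under 0.05 in each. Against the other 5 mutants HSPA1A was 0.73 higher in the cytoplasmic-labelled libraries (adjusted p = 0.0013), where their 9 libraries spanned 17.5 to 32.8 CPM. HSPA1A, HSPA1B and HSPA8 were 0.31, 0.32 and 0.14 higher than in the other mutants in the nuclear-labelled libraries.

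The heat shock element, to which the factor HSF1 binds, was searched as GAA, any 2 bases, TTC, any 2 bases and GAA, in the same windows and on both strands. It was found in 5 of 17 heat shock genes with a promoter sequence (29.4%) and in 152 of 27305 genes (0.557%). The matches of 3 genes that rose in the cytoplasmic-labelled libraries are shown in capitals: HSPA8 at chr11:123062345-123062374 on the minus strand, HSP90AA1 at chr14:102087111-102087140 on the minus strand with the match on the other strand, and CHORDC1 at chr11:90223088-90223117 on the minus strand, where further matches overlap the one shown.
HSPA8: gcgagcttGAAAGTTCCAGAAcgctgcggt
HSP90AA1: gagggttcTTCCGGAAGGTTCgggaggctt
CHORDC1: cgcgaccgGAAAATTCGCGAAggttcctga
HSP90AA1, an inducible HSP90, rose by 0.90 and 0.22, and CHORDC1, an HSP90 partner, by 0.67 and 0.31. The other heat shock genes with a match were HSP90AB1 and HSPD1. Both rose in the cytoplasmic-labelled libraries as well, but fell in the nuclear-labelled ones.

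Genes of the unfolded protein response of the endoplasmic reticulum were called in both directions. Of 19 genes, 9 rose and 3 fell in the cytoplasmic-labelled libraries, where 3.11% and 4.27% of all genes did so, and 8 rose and 3 fell in the nuclear-labelled ones, where 10.2% did so in each direction. The chaperone HSPA5 (BiP) was at 681 and 656 CPM against 500 and 495 CPM and at 253 and 250 CPM against 199 and 217 CPM. The 3 that fell were the same in both fractions: HERPUD1 and EDEM1, which act in degradation of misfolded proteins, fell by 1.22 and 0.79 in the cytoplasmic-labelled and by 1.45 and 0.71 in the nuclear-labelled libraries, and the transcription factor XBP1 fell by 1.06 and 0.95. These 3 falls passed the test in every alternative run. The cytoplasmic-labelled rises numbered 3 without R534S replicate 1, R534S replicate 2 or WT replicate 1, and 2 without WT replicate 2, and the nuclear-labelled ones numbered 4 without WT replicate 1. The call of HSPA5 in the cytoplasmic-labelled libraries was lost without R534S replicate 1 or WT replicate 2.

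Among genes of the translation machinery, calls were mostly rises in the cytoplasmic-labelled and mostly falls in the nuclear-labelled libraries. Of 79 cytosolic ribosomal protein mRNAs, 6 rose and 0 fell in the cytoplasmic-labelled libraries, and 1 rose and 37 fell in the nuclear-labelled ones, with medians of 0.15 and -0.13. Of all genes, 3.11% rose in the former and 10.2% fell in the latter. RPL3, a protein of the large subunit, was at 612 and 600 CPM against 499 and 496 CPM and at 1770 and 1710 CPM against 2270 and 2310 CPM. RPL31 and RPL5, of the same subunit, fell by 0.44 and 0.37 in the nuclear-labelled libraries. Many ribosomal protein genes have processed copies, so a share of their reads is uncertain. The 6 cytoplasmic-labelled rises were 0 without R534S replicate 1, R534S replicate 2 or WT replicate 1, 1 without WT replicate 2, and 14 and 15 without replicate 1 and 2 of the cells with no transgene. The 37 falls were 23 without WT replicate 1. Of 40 initiation and elongation factors, 10 rose and 1 fell in the cytoplasmic-labelled libraries, and 3 rose and 14 fell in the nuclear-labelled ones. EIF4A2, an initiation helicase, was at 353 and 366 CPM against 270 and 232 CPM in the former and showed no difference past the test in the latter (0.01 ± 0.06). EIF1 and EIF2S2, which act in start codon choice and in bringing the initiator transfer RNA, fell by 0.57 and 0.59 in the nuclear-labelled libraries. EIF5, which acts with them, rose there from 167 and 180 CPM to 351.1 and 346.3 CPM, 1.00 ± 0.06. EEF1A1, the elongation factor that delivers transfer RNAs, rose by 0.51 in the cytoplasmic-labelled and fell by 0.16 in the nuclear-labelled libraries, and it too has many copies. The 10 rises were 5 and 3 without R534S replicate 1 and 2, 4 without either WT library, and 19 and 20 without replicate 1 and 2 of the cells with no transgene. EIF4G1, the initiation scaffold, rose by 0.37 and 0.24, and its cytoplasmic-labelled call was lost without R534S replicate 1 or WT replicate 2.

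Mitochondrially encoded mRNAs, which code for subunits of the respiratory chain and ATP synthase, were higher in R534S in the nuclear-labelled libraries. There 12 of 13 rose, where 10.2% of all genes were higher, with a median of 1.02. Their summed level was 43820 and 42050 CPM in R534S and 19970 and 20990 CPM in WT. MT-CO1, a core subunit of complex IV, was at 9940 and 9240 CPM against 3930 and 4120 CPM, and MT-CYB, of complex III, at 3180 and 3060 CPM against 1290 and 1340 CPM. MT-ND6, which is encoded on the other strand, was at 71.1 and 99.6 CPM against 90.4 and 90.7 CPM and did not pass the test. In the cytoplasmic-labelled libraries 0 of 13 were called, 0 also at an unadjusted p under 0.05 and by DESeq2, with a median of -0.23, and the summed level was 45330 and 47660 CPM against 53830 and 56740 CPM. The WT nuclear-labelled libraries were low beside most genotypes: the summed level there was 57530 and 54060 CPM in uninfected cells, 33440 and 41710 CPM with no transgene, 68090 and 51340 CPM in T532M and 18860 CPM in the R376C library. The ratio change of these mRNAs had a median of 1.21, but 0 of 13 were called by edgeR, 12 were higher at an unadjusted p under 0.05 and 8 by DESeq2. Whether carry-over of mitochondria into a fraction moved with genotype was not tested.

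**Figure D4:**
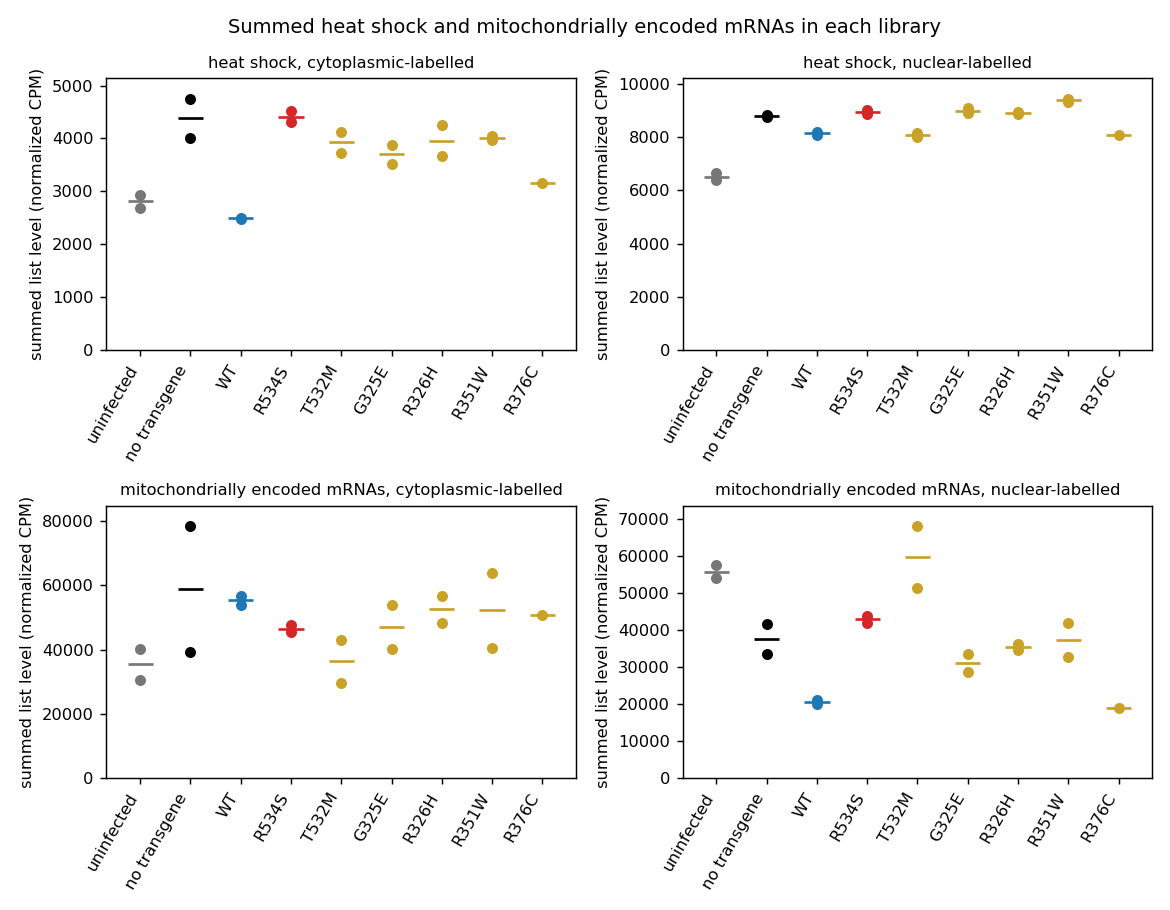
Summed level, in normalised CPM, of the 18 heat shock genes (top) and the 13 mitochondrially encoded mRNAs (bottom) in each library by genotype, for the cytoplasmic-labelled (left) and nuclear-labelled (right) libraries (points, libraries; bars, group means). Heat shock genes sum to 4305 and 4516 CPM in R534S and to 2487 and 2493 CPM in WT in the cytoplasmic-labelled libraries, and the mitochondrial mRNAs are lower in WT than in R534S in the nuclear-labelled libraries.

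Cell cycle genes differed in the nuclear-labelled libraries. Of 38 mitosis genes 15 fell and 1 rose, and of 40 genes of the G1/S step and DNA replication 16 fell and 1 rose, where 10.2% of all genes fell, with medians of -0.14 and -0.13. CDT1, a licensing factor of replication, was at 182 and 167 CPM against 250 and 264 CPM, and MCM6, a subunit of the replicative helicase, at 214 and 220 CPM against 272 and 281 CPM. NDC80 and CENPF, kinetochore proteins, fell by 0.56 and 0.37. In the cytoplasmic-labelled libraries 1 of 40 mitosis genes rose and 0 of 40 replication genes were called by edgeR or DESeq2, with 6 higher and 2 lower at an unadjusted p under 0.05. The 16 replication falls were 7 without R534S replicate 2. Of 43 replication-dependent histones, whose copies share reads and are uncertain, 7 rose and 8 fell in the nuclear-labelled libraries, nearer to the 10.2% of all genes in each direction, and 0 were called in the cytoplasmic-labelled ones by edgeR or DESeq2, with 1 higher and 4 lower at an unadjusted p under 0.05. H1-2, a linker histone, was the leading fall, with 1160 and 1130 CPM against 1720 and 1670 CPM. The rises became 2 without R534S replicate 1 or WT replicate 2, and the falls became 3 and 4 without R534S replicate 2 and WT replicate 1. MYC, a growth-promoting transcription factor, fell by 0.52 in the nuclear-labelled libraries and was 0.32 ± 0.11 lower in the cytoplasmic-labelled ones (adjusted p = 0.063). PIM1, a survival kinase, fell by 0.50 and 0.74.

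Of 28 glycolysis and hypoxia genes, 7 rose and 1 fell in the cytoplasmic-labelled libraries, where 3.11% of all genes rose, and 5 rose and 2 fell in the nuclear-labelled ones, where 10.2% did so in each direction. PKM, pyruvate kinase, was at 627 and 606 CPM against 377 and 381 CPM and at 1190 and 1100 CPM against 1030 and 1020 CPM, and GAPDH rose by 0.73 and 0.21. VEGFA was the fall on this list in the cytoplasmic-labelled libraries. Without R534S replicate 1 the 7 rises were 4. The 5 nuclear-labelled rises were 3 without R534S replicate 1 or WT replicate 1, and the 2 falls were 6 and 5 without T532M replicate 1 and 2. Host genes of small nucleolar RNAs, whose spliced products are destroyed when translated, rose in 9 of 22 in each fraction, beside 3.11% and 10.2% of all genes. In the cytoplasmic-labelled libraries 0 fell and in the nuclear-labelled ones 2 did, where 4.27% and 10.2% of all genes fell. SNHG12 was at 92.6 and 87.9 CPM against 61.9 and 50.4 CPM and at 32.8 and 27.7 CPM against 12.8 and 14.9 CPM. GAS5 rose by 0.61 in the cytoplasmic-labelled and fell by 0.18 in the nuclear-labelled libraries. The 9 cytoplasmic-labelled rises were 4 without R534S replicate 2 or WT replicate 2. Among DEAD-box and DEAH-box helicases 9 of 39 rose and 2 fell in the cytoplasmic-labelled libraries, where 3.11% and 4.27% of all genes did so. In the nuclear-labelled ones 3 rose and 3 fell, a smaller share than the 10.2% of all genes in each direction. DDX17, a relative that acts in splicing, fell from 1870 and 1920 CPM to 1370 and 1420 CPM in the former and rose by 0.25 in the latter. The 9 rises were 2 and 4 without R534S replicate 1 and 2, 3 and 1 without WT replicate 1 and 2, and 5 without either T532M library. The 2 falls became 1 without R534S replicate 1 or either WT library, and the 3 nuclear-labelled falls became 1 without R534S replicate 1 or WT replicate 1.

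Markers of blood lineages were checked in R534S and WT. Of all genes, 3.11% were higher and 4.27% lower in the cytoplasmic-labelled libraries, and 10.2% were called in each direction in the nuclear-labelled ones. Erythroid surface and regulator genes, which K562 cells express, summed to 3319 and 3341 CPM in R534S and 3127 and 3045 CPM in WT in the cytoplasmic-labelled libraries. Of 20 measured there 0 were called by edgeR, with 3 higher and 6 lower at an unadjusted p under 0.05 and 0 by DESeq2, and 2 of 21 rose and 1 fell in the nuclear-labelled libraries. Globin and heme synthesis genes numbered 0 up and 2 down of 17 in the cytoplasmic-labelled and 2 up and 3 down of 18 in the nuclear-labelled libraries. Of 12 megakaryocyte and platelet genes 1 rose and 3 fell in the cytoplasmic-labelled libraries: THBS1, a matrix glycoprotein of platelets, was at 43.5 and 52.7 CPM against 24.5 and 27.7 CPM, while RUNX1, a lineage transcription factor, fell by 0.53 and TBXA2R, the thromboxane receptor, by 0.78. Without R534S replicate 2 the TBXA2R call was lost. Of 24 listed granulocyte and monocyte genes 13 passed the filter on low counts, and ELANE, FCGR3A, FPR1 and S100A9 had 0 counts in all 8 libraries. Of the 13 measured granulocyte and monocyte genes 3 fell and 1 rose in the cytoplasmic-labelled libraries, and their summed level was 238 and 275 CPM in R534S against 376.2 and 381 CPM in WT. FCGR2A, an IgG receptor, was at 6.48 and 12.7 CPM against 33.0 and 30.5 CPM and at 5.10 and 3.19 CPM against 18.3 and 16.3 CPM. CSF3R, the receptor of granulocyte colony-stimulating factor, fell by 0.77 in the cytoplasmic-labelled libraries but was 0.62 above the cells with no transgene (adjusted p = 0.0079), at 102 and 115 CPM against 66.2 and 75.2 CPM. ANXA1, a lipid-binding protein of granulocytes, rose to 7.92 and 4.95 CPM from 0.963 and 2.68 CPM, a call lost without R534S replicate 1 or WT replicate 1. Lymphocyte genes, 5 of 17 measured, with GNLY, IL7R and MS4A1 at 0 counts in all 8 libraries, summed to 25.9 and 26.3 CPM in R534S and 37.3 and 38.6 CPM in WT, with 1 lower, a call lost without any 1 of the 4 libraries. Of 6 measured of 14 fibroblast and epithelial genes 0 were called there by edgeR, with 1 higher and 1 lower at an unadjusted p under 0.05 and 0 by DESeq2, and sums of 153 and 166 CPM and 139 and 143 CPM. Nuclear-labelled calls were 1 higher and 2 lower of 13 megakaryocyte and platelet genes, 1 lower of 13 granulocyte and monocyte genes, 1 lower of 6 fibroblast and epithelial genes and 2 lower of 6 lymphocyte genes, with a median of -0.62 for the last. The 2 lymphocyte falls were 0 without R534S replicate 1, R534S replicate 2 or WT replicate 2, and 1 without WT replicate 1, either library with no transgene, G325E replicate 1 or the R376C library. The megakaryocyte rise was lost without R534S replicate 2, 1 of the 2 falls without WT replicate 2, and the granulocyte falls were 2 without either T532M library. ACTA2, CDH1, COL3A1, KRT14 and KRT5 had 0 counts in all 8 libraries. Any part of other cell types in these results was not tested.

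The counts of the remaining lists are given beside 3.11% of all genes higher and 4.27% lower in the cytoplasmic-labelled libraries, and 10.2% in each direction in the nuclear-labelled ones. Nuclear-encoded oxidative phosphorylation genes numbered 5 higher and 0 lower of 75 in the cytoplasmic-labelled libraries and 4 higher and 10 lower of 74 in the nuclear-labelled ones, and proteasome genes 4 and 0 of 34 and 2 and 7 of 34. Cholesterol genes had 1 higher and 1 lower of 24 and 3 and 3 of 24. Stress granule and P-body genes had 3 higher and 1 lower of 24 and 5 and 6 of 24, and mRNA export factors 1 and 0 of 22 and 3 and 4 of 22. Nuclear-retained long non-coding RNAs had 1 higher and 2 lower of 11 and 2 and 3 of 10. CDK inhibitors and p53 targets had 0 higher and 1 lower of 15 and 0 and 2 of 15. BBC3, which encodes a pro-apoptotic protein of the BH3-only class, fell by 1.26 in the cytoplasmic-labelled and by 1.76 in the nuclear-labelled libraries. The CDK inhibitor CDKN1B fell by 0.44 in the latter. Interferon response genes had 1 higher of 18 and 2 higher and 1 lower of 15, Wnt genes 1 higher of 20 and 6 higher and 2 lower of 20, and immediate early genes 2 and 2 of 31 and 7 and 5 of 32. Of 16 NF-kappaB genes 0 were called in the cytoplasmic-labelled libraries by edgeR, with 0 higher and 0 lower at an unadjusted p under 0.05 and 0 by DESeq2, and 2 of 17 fell in the nuclear-labelled ones. Most of these counts moved by more than 1.5 times when a library was left out: the 10 falls of oxidative phosphorylation genes, for example, were 2 without R534S replicate 1 or WT replicate 1, 6 without R534S replicate 2 and 4 without WT replicate 2.

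The largest rises outside these groups were mostly genes at low levels. TSPOAP1, a protein of presynaptic sites, was at 203 and 206 CPM against 58.7 and 67.2 CPM in the cytoplasmic-labelled libraries (1.69 ± 0.18), with 106 and 162 CPM in cells with no transgene. NEFH, the heavy neurofilament subunit, was at 138 and 126 CPM against 49.8 and 51.1 CPM and at 294 and 277 CPM against 93.8 and 107 CPM, so that it was 2.61-fold and 2.83-fold higher. The other mutants had NEFH at 78.6 to 132 CPM and 180 to 339 CPM, and R534S was 0.22 above their mean in the nuclear-labelled libraries. Calls that were lost when a single library was left out were those of TMEM217, LAMC1, RCOR2, CPLX1, NAAA and MAPK8IP2. All were in the cytoplasmic-labelled libraries, with main changes of 1.13 to 1.44. Such a run leaves 1 library in a group, and none of these changes turned in sign. The calls of LAMC1, RCOR2 and TMEM217 were lost without R534S replicate 1 or WT replicate 1, that of CPLX1 without either WT library, and those of NAAA and MAPK8IP2 without WT replicate 2. CRB2, a cell polarity protein, rose by 1.18 and 0.91. In the nuclear-labelled libraries AJM1, AP3B2, MT2A, IER5L, NEK3 and DISP2 rose by 1.10 to 1.54. MT2A, a metallothionein, was at 11.1 and 6.70 CPM against 3.44 and 3.34 CPM.

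Of non-coding RNAs, RNY1, the Y RNA of Ro particles, was at 3.02 and 1.58 CPM against 18.8 and 12.2 CPM in the cytoplasmic-labelled libraries. RNU4ATAC, of the minor spliceosome, was at 4.03 and 3.17 CPM against 20 and 10.1 CPM. RN7SKP255 and RN7SKP71, which share reads with the 7SK RNA, fell by 2.53 and 2.46. For RNY1, RN7SKP255 and RN7SKP71 the WT libraries were above those of every other genotype in the set. RN7SKP255, for example, was at 14.7 and 16.4 CPM in WT and at 5.98 and 2.95 CPM in uninfected cells. RNU4ATAC was not so, with 17.9 and 21.7 CPM in cells with no transgene. These RNAs have copies and their reads are uncertain. The same holds for MTRNR2L8, which resembles mitochondrial ribosomal RNA: it was at 16.3 and 6.93 CPM in R534S and at 35.6 and 106 CPM in WT, and its call was lost under many alternatives. In the nuclear-labelled libraries MT-TT, a mitochondrial transfer RNA, rose by 1.78, and the antisense RNAs ENSG00000237311, GP6-AS1 and ZEB1-AS1 fell by 1.52, 1.32 and 1.22. With unstranded counts GP6-AS1 changed by -0.50 and its call was lost, and the call of ZEB1-AS1 was lost without R534S replicate 1.

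The ratio of the nuclear-labelled to the cytoplasmic-labelled level was tested as the difference of the changes. By this test 95 of 18969 genes (0.501%) had a higher and 390 (2.06%) a lower ratio in R534S, 2.56% in either direction, with a median change of -0.06. Every library of R534S and WT but WT nuclear-labelled replicate 1 moved the count of 485 by more than 1.5 times when left out, to 220 to 286. The lower ratios held much of the translation and folding machinery: 32 of 79 ribosomal protein genes, 19 of 40 translation factors, 10 of 34 proteasome genes, 8 of 18 heat shock genes and 10 of 28 glycolysis genes. Of these lists, 1 translation factor (EIF5, 0.65 ± 0.12) and 1 glycolysis gene had a higher ratio. Over all alternatives the ribosomal falls numbered 3 to 54, the translation factor falls 4 to 26 and the proteasome falls 0 to 17. The heat shock and glycolysis falls numbered 4 to 10 and 2 to 11. RPL3 changed by -0.74 ± 0.10, EEF1A1 by -0.73 ± 0.10, HSPA8 by -0.81 ± 0.11, HSP90AB1 by -1.11 ± 0.10 and GAPDH by -0.58 ± 0.11. In all 5 the cytoplasmic-labelled level was higher in R534S and the nuclear-labelled level was lower or rose less. Measures of fraction content were set beside these changes. GAPDH, itself 1 of these 5 genes and so not a separate measure, is given before normalisation. It was at 484 and 517 CPM in the R534S cytoplasmic-labelled libraries and at 293 and 305 CPM in WT. The no-feature share of the same libraries was 62.2% and 62.4% in R534S against 64.4% and 63.7% in WT. The ratio of NEAT1, a nuclear RNA, changed by -0.58 ± 0.11. The ratio of MALAT1 changed by 0.01 ± 0.10. The part of fraction purity in the ratio changes was not tested. Without 1 library the ribosomal falls numbered 14 to 20 (all but R534S nuclear-labelled replicate 2), the proteasome falls 2 to 5 (all but WT nuclear-labelled replicate 1), the heat shock falls 4 or 5 (R534S cytoplasmic-labelled replicate 2, R534S nuclear-labelled replicate 2, WT cytoplasmic-labelled replicate 1, WT nuclear-labelled replicate 2) and the glycolysis falls 5 or 6 (R534S cytoplasmic-labelled replicate 1, R534S nuclear-labelled replicate 2, WT cytoplasmic-labelled replicate 2, WT nuclear-labelled replicate 2).

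The largest single ratio changes were mostly of genes at low levels. CDK7, the kinase that activates cyclin-dependent kinases, was at 17 and 22.2 CPM against 12 and 11.4 CPM in the cytoplasmic-labelled libraries and at 31.3 and 32.3 CPM against 44.3 and 40.1 CPM in the nuclear-labelled ones, a ratio change of -1.19 ± 0.23. ASS1 changed by 1.31 ± 0.32, its fall being smaller in the nuclear-labelled libraries. HEG1, a cell junction receptor, was at 6.2 and 5.82 CPM against 1.83 and 1.06 CPM in the nuclear-labelled libraries and at 9.21 and 13.1 CPM against 8.91 and 8.38 CPM in the cytoplasmic-labelled ones. AMIGO1 changed by 1.19 ± 0.34. Leaving out single libraries ended the ratio calls of ASS1, HEG1, AMIGO1, TMEM179B, MTRNR2L8, FAAP24, PCLAF, ARHGAP19 and HNRNPH2, and those of DDIT4, MTHFD2 and SLC1A5. The calls of ATF4, HSP90AB1, HSPA8, HSPD1, RPL3, EEF1A1, EIF5, GAS5, CDK7 and DDX17 were kept in every alternative run.

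**Figure D5:**
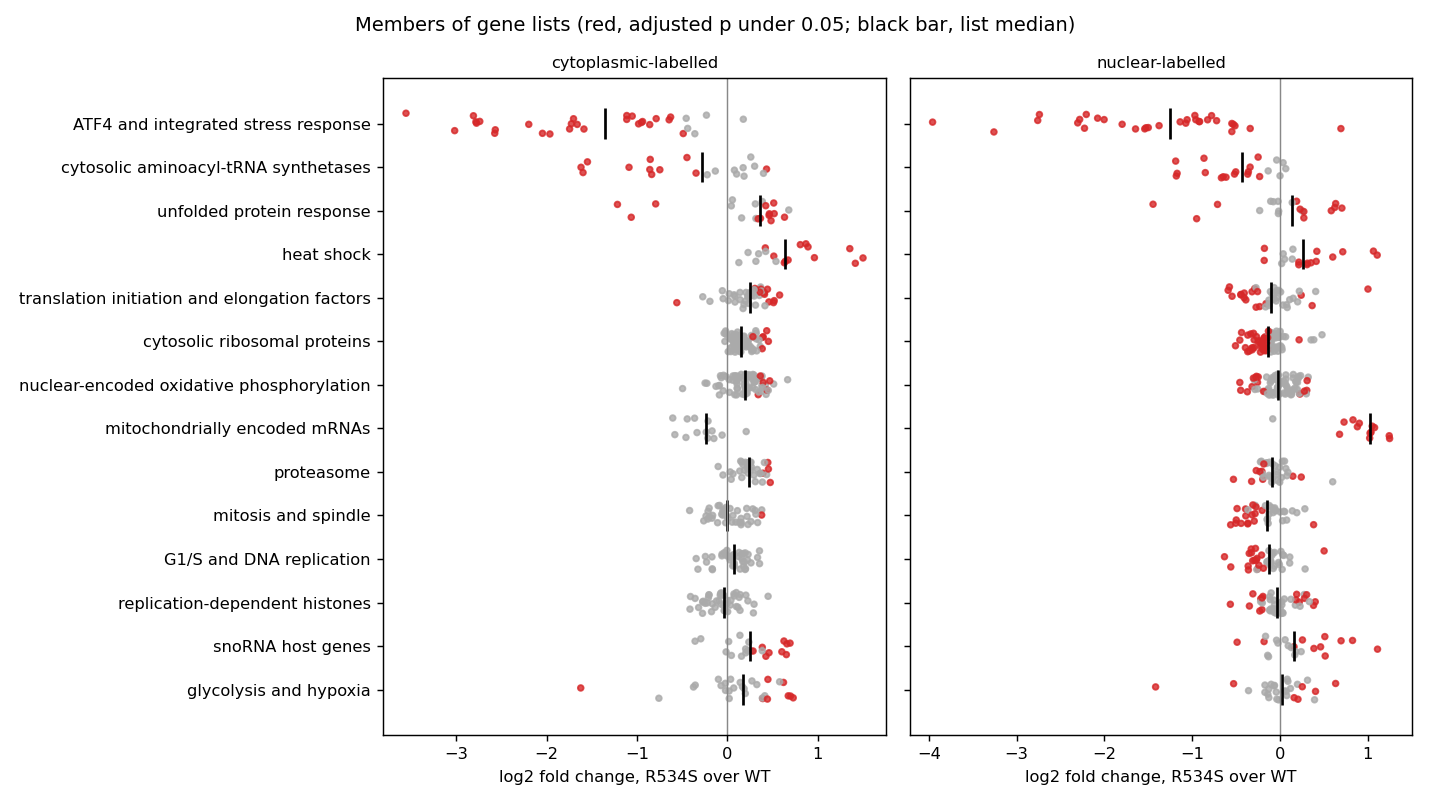
Log2 fold change, R534S over WT, of the measured members of 14 gene lists (points, genes; red, adjusted p under 0.05; black bar, list median) in the cytoplasmic-labelled (left) and nuclear-labelled (right) libraries. Of the lists shown, the ATF4 list has the lowest medians, -1.35 and -1.26, and the mitochondrially encoded mRNAs have the highest nuclear-labelled median, 1.02.

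Genes called in the nuclear-labelled libraries also differed in base composition, which is given as a description. The median GC content of the coding transcripts was 54.2% in genes that rose, 45.6% in genes that fell and 49.7% in all genes tested. The GC content of 5′ untranslated regions was 71.4%, 63.2% and 66.2% in this order. In the cytoplasmic-labelled libraries the transcript medians were 54.4%, 49.7% and 50%. Protein-coding genes made up 95.4% of the rises in each fraction, 92.1% of the nuclear-labelled falls and 68.5% of the cytoplasmic-labelled ones, against 80.5% and 69.6% of the nuclear-labelled and cytoplasmic-labelled genes tested.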

How the data were processed

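Per the labels' protocols, cells were lysed with NP-40, fractionated over a sucrose cushion and sequenced as rRNA-depleted, directional libraries. The deposited files hold whole-number read counts per gene, which the authors made with STAR 2.7.5a on GRCh38, per the submitters' processing notes. Of the columns in each file, column 4, the reverse-strand count, was used. Of 60664 gene identifiers 60463 had a name. Rows for reads in no feature stayed out of library sizes and tests.

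Normalised CPM and edgeR 4.0.16 quasi-likelihood tests (TMM, filterByExpr, robust, R 4.3.3) were computed per labelled fraction on all libraries of the transgene experiment, which share 1 estimate of spread, and for the ratio as an interaction in 1 fit of both fractions. R376C nuclear-labelled replicate 2 was left out. P-values were adjusted by Benjamini-Hochberg over all genes tested, with a threshold of 0.05. DESeq2 1.42.0 was an alternative. Replicate numbers were checked for pairing and did not pair the libraries.

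The members and the gene lists were chosen with earlier results of these data known. Named genes were, per fraction, the 12 largest rises and falls among called protein-coding genes with a mean of at least 5 CPM and groups that did not overlap, 6 each for the ratio, up to 4 non-coding genes, and the 3 called members of lowest p of each list. A gene named by this rule is not reported here. Others were named after their values were seen. Alternatives were other size factors, filters, library sets, unstranded counts, a replicate block and leaving out single libraries. Uninfected libraries were not left out singly, and for the ratio only R534S and WT libraries were.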

Additional observations from a re-analysis of the deposited data

Results flagged for a closer look

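These results stood out because the effect of R534S differed between the labelled fractions, or because R534S differed from the mean of the other 5 mutants, each by a test of the difference itself in edgeR. Values are log2 differences.

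For the nuclear-labelled minus the cytoplasmic-labelled change against WT, stress response genes differed in both directions. ATF4 (-0.79), DDIT4 (-0.75) and MTHFD2 (-0.49) fell more in the nuclear-labelled libraries. The amino acid carriers SLC7A1 (0.55), SLC7A5 (0.53) and SLC1A5 (0.48) and the enzyme ASS1 (1.31) fell more in the cytoplasmic-labelled ones. Chaperones had lower ratios, with HSP90AB1 at -1.11, HSPD1 at -0.87 and HSPA8 at -0.81. The same held for RPL3 (-0.74), EEF1A1 (-0.73), GAS5 (-0.84), PKM (-0.60), GAPDH (-0.58) and CDT1 (-0.67). EIF5 (0.65), DDX17 (0.63) and SNHG3 (0.53) had higher ratios. Among the largest ratio changes were MTRNR2L8 (3.19), HEG1 (1.68), AMIGO1 (1.19) and TMEM179B (0.98) upwards, and FAAP24 (-1.49), PCLAF (-1.29), CDK7 (-1.19), ARHGAP19 (-1.06) and HNRNPH2 (-1.02) downwards. Of the largest changes only the call of CDK7 was kept in every alternative run. The others lost theirs when single libraries were left out, as did ASS1, DDIT4, MTHFD2 and SLC1A5. FAAP24 also lost its call with other size factors, other filters and unstranded counts. The reads of MTRNR2L8 are shared with mitochondrial ribosomal RNA and are uncertain.

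Against the mean of the other 5 mutants in the nuclear-labelled libraries, DDX3X was lower (-0.22). So were SLC7A11 (-0.72), ALDH1L2 (-0.54), PSAT1 (-0.44), PHGDH (-0.27) and PCK2 (-0.23) of the ATF4 list, of which all but SLC7A11 lay within the range of the other mutants, and MS4A3 (-0.43), BCAT1 (-0.34), RPL31 (-0.16) and CENPF (-0.16). UNC13A (0.54), HSPA1B (0.32), HSPA1A (0.31), SNHG3 (0.30), NEFH (0.22) and HSPA8 (0.14) were higher. For DDX3X, SNHG3 and NEFH both R534S libraries also lay within the range of the other mutants. So did R534S replicate 2 for BCAT1 and replicate 1 for UNC13A. For the ATF4 list the mean of the others includes the lone R376C library, with a nuclear-labelled list median against WT of -0.56. That median was -1.26 in R534S and -1.42 to -1.24 in the remaining mutants. In the cytoplasmic-labelled libraries HSPA1A (0.73), LIF (0.71) and UNC13A (0.70) were higher, and for LIF the mean of the others is set low by T532M. The nuclear-labelled count of 252 such genes was 11 without R534S replicate 1.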

How the results depend on the processing

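Of 178 called gene results, 147 passed the test under every alternative, 31 lost the call under at least 1 and 0 changed sign. Genes that were not called could change sign. DDX3X in the cytoplasmic-labelled libraries was at -0.060 with unstranded counts and at -0.014 to 0.070 with 1 library left out, and in the ratio at 0.0032 with unstranded counts. MT-CO1 in the cytoplasmic-labelled libraries was at -0.13 to 0.015 with 1 library left out. MT-ND6 in the nuclear-labelled libraries was at 1.03 with unstranded counts and at -0.35 to 0.14 with 1 library left out. Counts of calls moved with the set of libraries in the fit. With only R534S and WT libraries, 3024 genes were called in the cytoplasmic-labelled libraries (1488 higher, 1536 lower) and 1216 for the ratio (321 higher, 895 lower). With the guide experiment in the same fit these were 720 (249 higher, 471 lower) and 79 (19 higher, 60 lower), and the comparison with T532M gave 419. That fit gave 4 and 54 genes against the other mutants and 6 nuclear-labelled genes against no transgene. Against the other mutants, genes with any count gave 30 in the cytoplasmic-labelled libraries and DESeq2 gave 138 in the nuclear-labelled ones. Against no transgene, DESeq2 gave 10 nuclear-labelled genes and a fit without uninfected cells 18. The cause was not tested. Leaving out 1 library gave 465 to 2233 genes in the cytoplasmic-labelled, 1806 to 3490 in the nuclear-labelled comparison with WT and 220 to 382 for the ratio. It gave 0 to 58 and 11 to 749 against the other mutants, 296 to 1213 and 1235 to 2459 against T532M, and 12 to 453 and 4 to 80 against no transgene. A lone sample left in a group was assumed to vary like the other groups. Replicate numbers did not pair the libraries (correlation of deviations 0.03 and -0.14). A replicate block gave 1156, 2899 and 498 genes against WT, 13 and 198 against the other mutants, 618 and 2006 against T532M and 40 and 24 against no transgene. In the 4 nuclear-labelled libraries alone, the block gave 2924 calls and a crossed pairing, chosen after seeing the data, 3612. No alternative matched the depths of the libraries.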
